A study of Rattus norvegicus with 16 samples.

Results

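Ancient LINEs are here a group of long interspersed elements, most of which settled in mammalian genomes before rodents arose. Of the 997 repeat names counted in these libraries, 100 were ancient LINE names. They were chosen by name alone, as those beginning with L1M followed by a capital A to E or a digit, or with L1P, HAL1, L2, L3 or L4, so that the younger rodent elements, L1Md among them, were left out. Their 304791 annotated copies covered 70134921 bases of the rn5 genome, which was 7.07% of all repeat bases. Small RNAs were counted in eGFP+ germ cells (GCs) that were sorted out of testes from male Sprague-Dawley rats, with 4 libraries from rats fed a high-fat diet (HFD) and 4 from rats fed a control diet (CD). By the labels the HFD gave 40% and the CD 10% of energy as fat, from weaning until the rats were 19 weeks old, while the study's text gives a higher share of fat for the HFD. All rats on both diets carried the GCS-eGFP transgene, whose germ cell-specific expression was the basis of the sort. The GCs of a testis span all stages of spermatogenesis, and the small RNA of a library is a mean over them, in which fewer cells of a stage and less RNA per cell cannot be told apart. Marker genes of GCs and of somatic testis cells were not analysed here, because none of the gene identifiers in the mRNA files could be paired with a symbol.

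LINEs copy themselves through an RNA intermediate with a reverse transcriptase of their own. L1M names are older branches of the L1 lineage, and L1P names also belong to that lineage. HAL1 is an L1 relative that lacks part of the L1 coding sequence. L2, L3 and L4 (the last also known as RTEX) belong to other, older LINE lineages. Most copies of these names in the rat are short, 5′ truncated and mutated, and none is thought to move today. In the testis, PIWI proteins bind piRNAs, small RNAs that in fetal GCs are directed against active transposons. In meiotic and post-meiotic GCs most piRNAs come from long precursors of a limited number of genomic clusters, in which old repeat fragments lie as parts of the transcript.

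The only mature small RNA sequences that could be set beside these elements were those of miRNAs. Of 505 annotated miRNA hairpins, 13 overlapped a copy of an ancient LINE, 11 of them a copy of an L2 name and 7 a copy of L2c. For 5 hairpins the stem fell on 2 neighbouring copies of opposite strand. Among these, rno-mir-3586 and rno-mir-151 began at the same base, chr7:114421107, on opposite strands and over the same L2c copies. That place is therefore counted for both hairpins in each of these numbers. The hairpin of rno-mir-28 at chr11:81345175-81345260 (rn5, plus strand) lay across an L2c copy on the minus strand at chr11:81345089-81345209 and another on the plus strand at chr11:81345210-81345259. The hairpin of rno-mir-708 at chr1:167436243-167436330 (plus strand) likewise lay across L2c copies at chr1:167436235-167436298 on the minus strand and chr1:167436301-167436364 on the plus strand. Of 10 arm names of these hairpins, 6 were found in RefSeq (GRCr8). No sequence of an L2c copy was compared, so what the arms share with L2c was not tested. Among the arms found, those of this pair were the only ones of hairpins on L2c copies. Arms of the other L2c hairpins were not compared. The arms of the pair are shown with the seed, bases 2 to 8, in capitals:
rno-miR-28-5p: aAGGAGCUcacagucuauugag
rno-miR-708-5p: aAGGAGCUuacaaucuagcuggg
rno-miR-28-3p: cACUAGAUugugagcuccugga
rno-miR-708-3p: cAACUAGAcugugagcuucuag
Both 5p arms begin with the same 8 bases and so share a seed, while the 3p arms share an inner run of 8 bases but not the seed. Within rno-miR-28, the reverse complement of the 5p arm shared a run of 11 bases with the 3p arm. The same comparison gave a run of only 5 bases within rno-miR-708, and of 9 within rno-miR-325, whose arms were also found. These miRNA entries held 0 counts in every library. Only reads of at least 25 bases had been kept, and miRNAs had been counted on the strand opposite to their annotation. The part of these steps in the 0 counts was not tested. The counts given below are of reads of at least 25 bases.

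Small RNA counts on ancient LINEs were high for the length of genome these elements cover, and came from a handful of names. Each library held between 335459 and 459176 such counts, of repeat totals between 2363595 and 3269169. The share of repeat counts was 14.12% ± 0.082 with HFD against 14.11% ± 0.26 with CD (SD, n = 4 each), against 7.07% of repeat bases. The name L2c alone held 25.6% of all ancient LINE counts, L2c, L1ME1 and L1M2 together held 54.9%, and the 6 leading names held 75.3% on 24.4% of the bases. The 20 leading names held 97.0%. At the other end, 17 names had a mean count under 1, and 5 of these (L1M2a1, L1M2b, L1M3f, L1M6B and L1MEg2) had no count in any library. A count of 3 was at most 0.000127% of a library's repeat counts, and this limit covers counting error only.

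**Figure D1:**
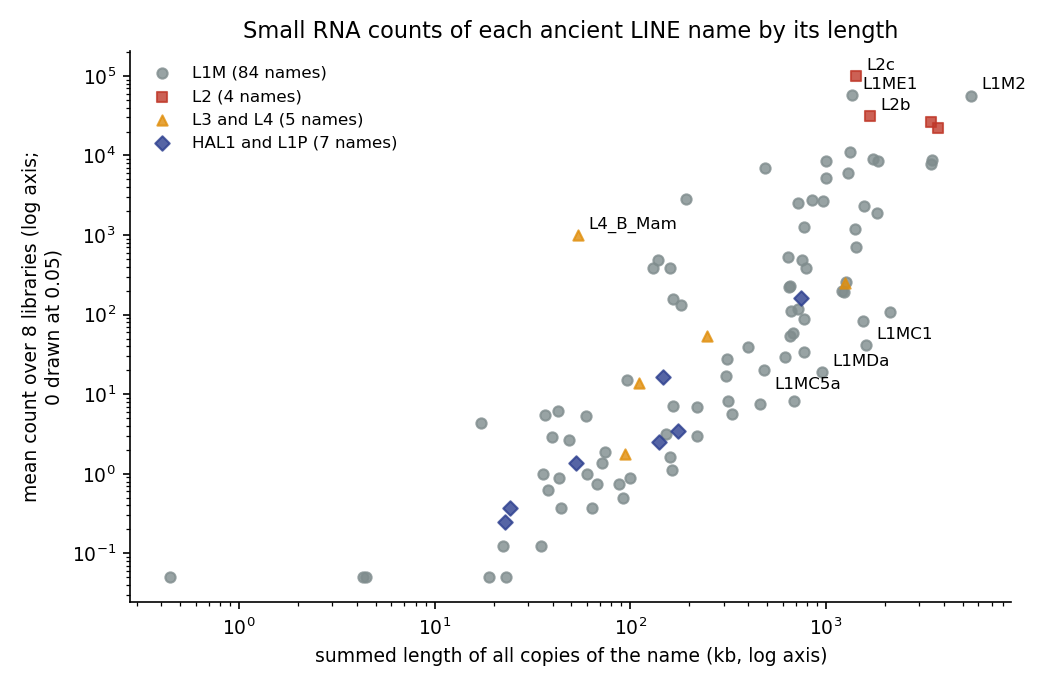
Mean count over 8 libraries against the summed length of all copies, both on log axes, with 1 point for each of the 100 ancient LINE names, marked by family. Longer names had more counts, but names of like length, such as L2c and L1MC1, differed by orders of magnitude, and L4_B_Mam stood far above other names of its length.

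L2c, the L2 name with the most counts, was the third most counted of all 997 repeat names. It held 90693, 84118, 112988 and 113787 counts in the HFD libraries, in the order of their replicate numbers, against 99493, 113189, 98700 and 88369 in the CD libraries. These counts fell on 11436 copies with a mean length of 125 bases, and came to 70.3 ± 8.42 counts per kb (SD, n = 8), the highest density of any ancient LINE name. The raw values followed the size of the libraries, and both diets held low and high ones.

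L1ME1, an L1M branch name with 5080 copies, had the second highest count and density. Its counts were 52042, 54669, 69189 and 63337 on the HFD and 57591, 63964, 51238 and 51125 on the CD, or 42.7 ± 5.06 per kb. The ranges of the diets overlapped over most of their width. L1M2, the ancient LINE name that covers most bases (5517419), had nearly the same counts as L1ME1 on a far greater length, and so a density of 10.3 ± 1.57 per kb. Its counts were 47782, 48649, 67765 and 66136 on the HFD and 50537, 64703, 58426 and 48715 on the CD, with HFD replicates 3 and 4 and CD replicate 2 high in both names.

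The 3 other L2 names followed in the order of counts. L2b had a mean count of 31245 and 18.6 ± 2.09 counts per kb, L2 had 26033 and 7.56 ± 0.86 per kb, and L2a had 22399.8 and 6.01 ± 0.96 per kb. The density of L2 names thus fell in the order L2c, L2b, L2, L2a, the reverse of the order of their total length. Small names could also be dense. L4_B_Mam had 18.7 ± 2.67 counts per kb on 53937 bases, L1ME3Cz had 14.8 ± 2.18 on 191603 bases and L1MD3 had 14.2 ± 2.04 on 484824 bases. The lowest densities among names with a mean count of at least 10 were those of L1MDa (0.020 ± 0.0046 per kb), L1MC1 (0.026 ± 0.0062) and L1MC5a (0.041 ± 0.011). The density of L1MC1 rested on a mean of 41.4 counts over 1606363 bases, a longer stretch than that of L2c.

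The median density over the 100 names was 0.10 counts per kb, and over all 997 repeat names it was also 0.10. Among the 100 names the spread was wide. The density was above 10 per kb in 7 of them and below 0.1 in 50. Across names, total length and density had a Spearman correlation of 0.65, whereas the mean length of a copy and density had one of -0.019. These are descriptions across names of 1 genome that share every library, and carry no test.

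By family, L2 had the highest density (17.5 ± 2.08 counts per kb, SD over 8 libraries), followed by L1ME (7.68 ± 0.89), the L1M names outside L1MA to L1ME (4.53 ± 0.68) and L4 (3.96 ± 0.56). L1MB had 2.61 ± 0.39, L1MA 2.20 ± 0.31, L1MD 2.00 ± 0.31 and L1MC 1.80 ± 0.22 counts per kb. L3 had 0.21 ± 0.024, HAL1 0.15 ± 0.018 and L1P, with 13 counts in all libraries together, 0.021 ± 0.021. The SD over libraries is mostly the spread of library size, which all families share, so neighbours in this order were compared within libraries. The order itself was set by the mean densities of these same libraries. The p-values below thus speak for how steady a gap was between libraries, and not for names or copies in general. In 8 of the 10 neighbouring pairs the higher family was higher in 8 of 8 libraries (two-sided exact sign-flip permutation test over the 8 libraries, adjusted p = 0.00977 over the 10 pairs, from p = 0.00781, the smallest that 8 libraries can give). L1MA was above L1MD in 6 of 8 libraries by 0.20 counts per kb on average (exact test, adjusted p = 0.0434), a call that was lost in 6 of the 8 cases of leaving out 1 library. With names of a mean count of at least 10 only, L1MA and L1MD (adjusted p = 0.167) and L3 and HAL1 (0.344) were no longer told apart by the exact test, and L4 lay above the other L1M names by 1.45 counts per kb. L1MD and L1MC, 0.20 counts per kb apart, were not told apart (exact test, adjusted p = 0.0625). With each family taken as its median name, the order was the reverse in 5 of the 10 pairs. In 9 of the 11 families 1 name held most of the counts. L3 and L1P are among them but have only 2 names each, and the leading L3 name held 82.2% of counts on 83.5% of bases.

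**Figure D2:**
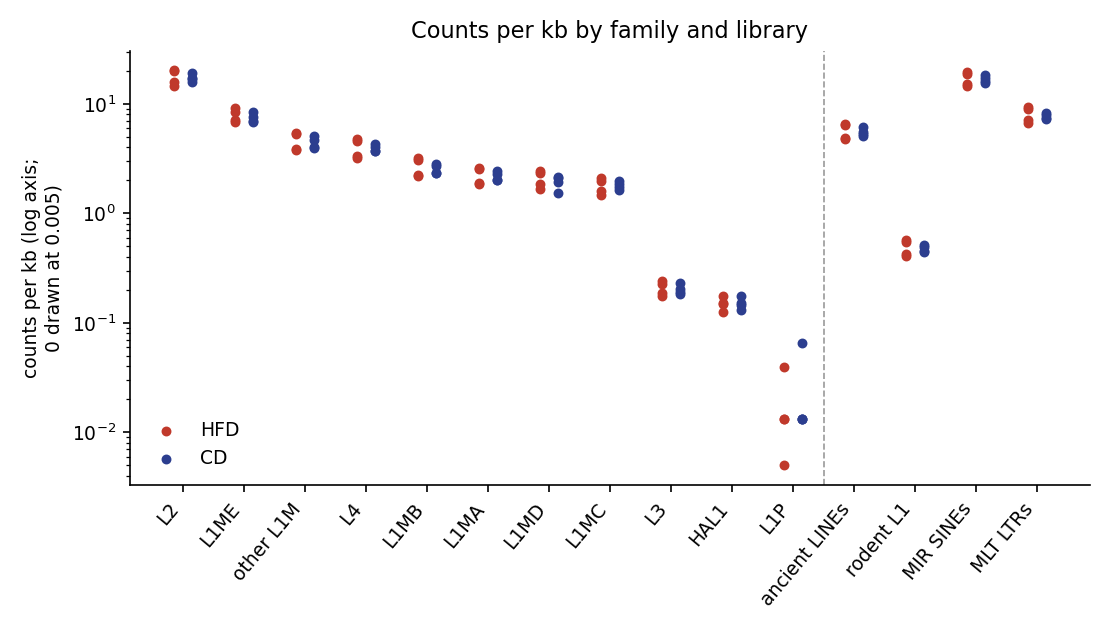
Counts per kb on a log axis for each ancient LINE family, in order of their mean, and right of the dashed line for all ancient LINEs and 3 other repeat groups. Each point is 1 library, red for HFD and blue for CD. L2 lies highest among the families and L1P lowest, and the points of both diets lie at the same heights.

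In the L4 family, L4_B_Mam held 98.5% of the counts on 20.8% of the bases. Its counts were 816, 853, 1171 and 1215 on the HFD and 953, 1098, 1031 and 949 on the CD. The sister names, chosen here after their values were seen, were low. L4_A_Mam had 8 to 19 counts per library on 111077 bases, and L4_C_Mam 0 to 3 on 93899 bases. Without L4_B_Mam the family's density was 0.076 counts per kb. In L1ME, likewise, L1ME1 held 87.5% of the counts on 15.7% of the bases, and the other 26 names together had 1.14 counts per kb. L1MD3 held 77.2% of the L1MD counts and L1M2 held 74.4% of those on other L1M names. In L2, L2c held 55.7% of the counts on 13.9% of the bases, but all 4 names had at least 6.01 counts per kb, and without L2c the family had 9.01. The leading names of L1MB and L1MA held less, 44.7% and 41.1% of their family's counts. The 2 L3 names were both low, at 0.20 and 0.22 counts per kb, although L3 copies cover a length like that of L2c.

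The density of ancient LINEs was compared with that of the younger rodent L1 elements (32 names) and with 2 other groups of old repeats, the MIR SINEs (4 names), which share their 3′ ends with L2, and the MLT LTRs (74 names), remnants of ancient retrovirus-like elements. Ancient LINEs had 5.58 ± 0.69 counts per kb, rodent L1 0.48 ± 0.060, MLT LTRs 7.88 ± 0.92 and MIR SINEs 17.0 ± 1.85 (SD, n = 8 libraries). The density of ancient LINEs was 11.5 times that of rodent L1, with a range of 11.14 to 12.02 over libraries, and was higher in 8 of 8 libraries (two-sided exact sign-flip permutation test, adjusted p = 0.00781 over 3 comparisons, the smallest these libraries allow). MIR SINEs were 3.06 times as dense as ancient LINEs (2.95 to 3.26) and MLT LTRs 1.42 times (1.35 to 1.45), both with the same exact p. The libraries share the same copies, so these tests speak for these libraries and not for names or copies in general. The L2 family alone, at 17.5 per kb, stood beside the MIR SINEs at 17.0. The direction against rodent L1 held for summed counts only: the median ancient LINE name (0.10 per kb) was less dense than the median rodent L1 name (0.36). Without the 6 leading names the remaining 94 had 1.82 ± 0.25 counts per kb, above the rodent L1 value of 0.48 but below the 2.79 of all repeats. These 94 names held 3.49% of repeat counts on 5.34% of repeat bases. Rodent L1 held 7.31% of repeat counts on 42.2% of repeat bases, and so lowered the density of all repeats. Reads with a mapping quality of 0, such as those with several equal placements, had not been counted, and the number lost from each group was not analysed here.

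The diet comparison asked whether the HFD changed small RNAs on these elements in GCs. No ancient LINE name passed the test. Of the 83 names with a mean count of at least 1, 0 passed an adjusted p of 0.05 in edgeR's quasi-likelihood test over all 755 repeat names tested, among which 1 passed (0.132%). At an unadjusted p under 0.05 the count was again 0 of 83, against 3.58% of all names, and the normalised counts of the diets overlapped in each of the 83, against 2.25% of all names without overlap. DESeq2 with and without shrinkage also called 0 of the 83 names, with 0 at an unadjusted p under 0.05. The log2 fold change was above 0 in 42 names and below 0 in 41, with a median of 0.0018 against 0.0053 over all names. In the 24 names with a mean count of at least 1000, log2 fold changes (HFD over CD) lay between -0.07 and 0.12, with a median standard error of 0.052. In the 59 names with a mean count of at least 10 they lay between -0.35 and 0.20.

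**Figure D3:**
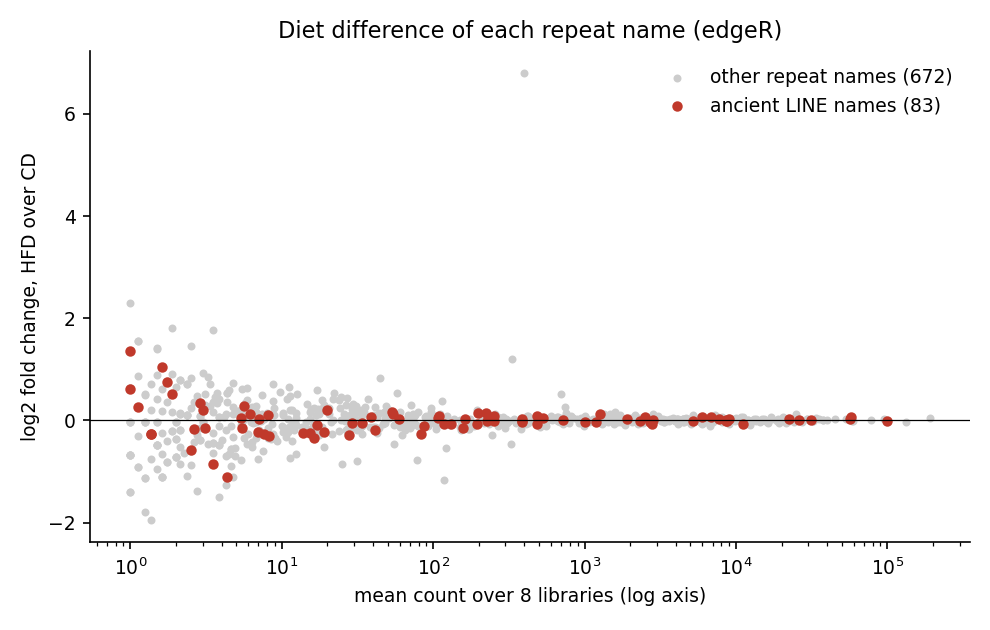
Log2 fold change of HFD over CD from edgeR against mean count on a log axis, for each of 755 repeat names, with the 83 ancient LINE names in red. The ancient LINE names close in on 0 as counts rise, and names with few counts scatter widely in both directions.

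The leading names differed little between diets once library size was taken into account. L2c had 35941 ± 924 CPM (normalised counts per 1000000) with HFD against 36460.5 ± 2285 with CD (SD, n = 4 each), a log2 fold change of -0.02 with a standard error of 0.044. L1ME1 had 21484.5 ± 1308 and 20451 ± 1915.5 CPM, a log2 fold change of 0.07 with a standard error of 0.065. L1M2, L2b, L2 and L2a had log2 fold changes between 0.0082 and 0.021. The adjusted p of each of these was 0.992, by edgeR. Among the dense small names, the log2 fold change was -0.03 for L4_B_Mam, 0.01 for L1ME3Cz and 0.06 for L1MD3. For the least dense names it was -0.24 for L1MDa, -0.19 for L1MC1 and 0.20 for L1MC5a, each with a standard error of about its own size (0.22, 0.20 and 0.23).

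The smallest unadjusted p of any ancient LINE name was 0.108, for L1MA9 (edgeR, adjusted p = 0.992). L1MA9 had 75.5, 76.2, 74.2 and 72.7 CPM on the HFD and 63.9, 67.4, 64.9 and 73.1 on the CD, a log2 fold change of 0.15 with a standard error of 0.085. CD replicate 4 lay among the HFD libraries, and the other CD libraries lay below them. Next came HAL1ME (log2 fold change -0.85, standard error 0.50) and L1MEg1 (-1.12, standard error 0.72), with mean counts of only 3.5 and 4.38 per library. Their libraries overlapped between diets.

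The share of repeat counts on ancient LINEs was 14.19%, 14.19%, 14.05% and 14.05% in the HFD libraries, against 14.20%, 14.41%, 13.78% and 14.05% in the CD libraries. All HFD values lay within the range of the CD values, and the difference of 0.011 percentage points was smaller than the SD of either diet (two-sided exact permutation test over the 70 labellings, p = 0.914, where the smallest possible p is 0.0286). L2 made up 6.46% ± 0.14 of repeat counts with HFD against 6.53% ± 0.14 with CD, L1ME 2.44% ± 0.13 and 2.35% ± 0.16, and the L1M names outside L1MA to L1ME 2.74% ± 0.070 and 2.73% ± 0.12. Of the 11 families L1MC had the smallest p, with 0.616% ± 0.016 with HFD against 0.642% ± 0.0077 with CD (exact permutation test, p = 0.0571, adjusted p = 0.629 over 11 families). For the others the adjusted exact p was 0.873 or more.

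**Figure D4:**
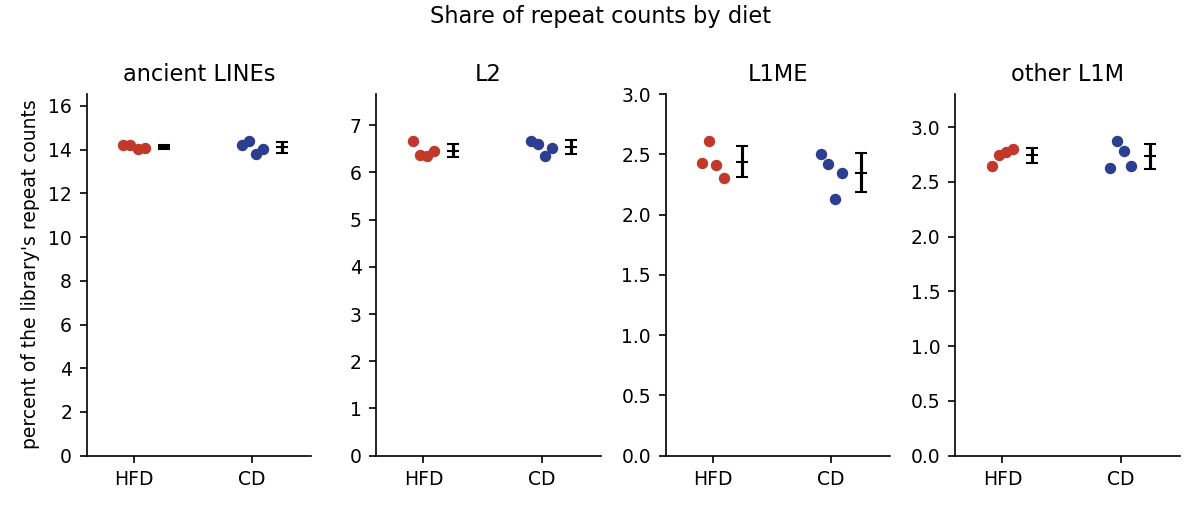
Percent of a library's repeat counts on all ancient LINEs and on the 3 families with the largest shares, by diet, with axes from 0. Points are libraries, and the black bars show the mean and SD of 4 libraries. The HFD and CD points overlap in all 4 panels.

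The spread between libraries within names was small for the well counted ones. Over the 24 names whose mean count reached 1000, the coefficient of variation of CPM across all 8 libraries was 4.70% at the median. It was lowest in L1MB7 (1.28%) and highest in L1MD2 (16.8%) and L1MD3 (11.4%). The CPM of L1MD3 was 2713, 2472, 2597 and 2393 on the HFD and 2069, 2248, 2547 and 2871 on the CD, so that both the lowest and the highest library were on the CD.

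Repeat counts carry no position, so the piRNA files, in which each entry has its place in rn5, were used to see which copies gave small RNA. Of 50830 piRNAs listed at 1 place only, 918 lay wholly within an ancient LINE copy. Of these, 137 had any count and 781 had none in any library. All piRNA entries were annotated on the plus strand and counted on the opposite one, so the counts cover reads that aligned to the minus strand of the genome and leave out the others. The 137 entries lay on 75 copies of 25 names, or 0.0246% of all ancient LINE copies. Their 107252 counts were 1.73% of the counts on single-place piRNAs, and came to 4.34% of the number of repeat counts on the 25 names (3.43% on all 100).

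The counts were concentrated on few copies, with 55.6% on the leading 5. The first was an L1M2 copy of 712 bases at chr1:203685572-203686283 (minus strand, outside annotated genes), which held 22.9%. Its counts were 2507, 2570, 3522 and 3908 on the HFD and 2669, 3456, 3142 and 2839 on the CD, from 7 piRNAs. In every library it held more counts than any other ancient LINE copy. It lay in a run of 59 counted piRNAs spanning 10.3 kb. The piRNA with the most counts of all those on ancient LINEs, rat_piRNA_157311 at chr1:203686083-203686110, was on this copy.

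The second was an L2b copy of 63 bases at chr12:8628543-8628605 (plus strand, outside genes), on which 1 piRNA gave 1049, 1139, 1629 and 1505 counts in HFD libraries against 1072, 1410, 1211 and 1171 in CD libraries. The third was an L1MB5 copy at chr7:98478185-98478601 (minus strand), within an intron of the Ensembl gene ENSRNOG00000006251, with 1012, 1014, 1506 and 1228 counts in HFD libraries against 1277, 1341, 1220 and 1099 in CD libraries. All piRNA counts on L1MB5, most of them on this copy, came to 49.5% of the number of its repeat counts. An L2b copy at chr7:100141845-100142099 and an L1MB7 copy at chr19:52349582-52349898, both on the plus strand and outside genes, held 7932 and 7248 counts over the 8 libraries. Scaled to the piRNA counts of each library, the libraries of both diets overlapped on each of the 5 copies.

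**Figure D5:**
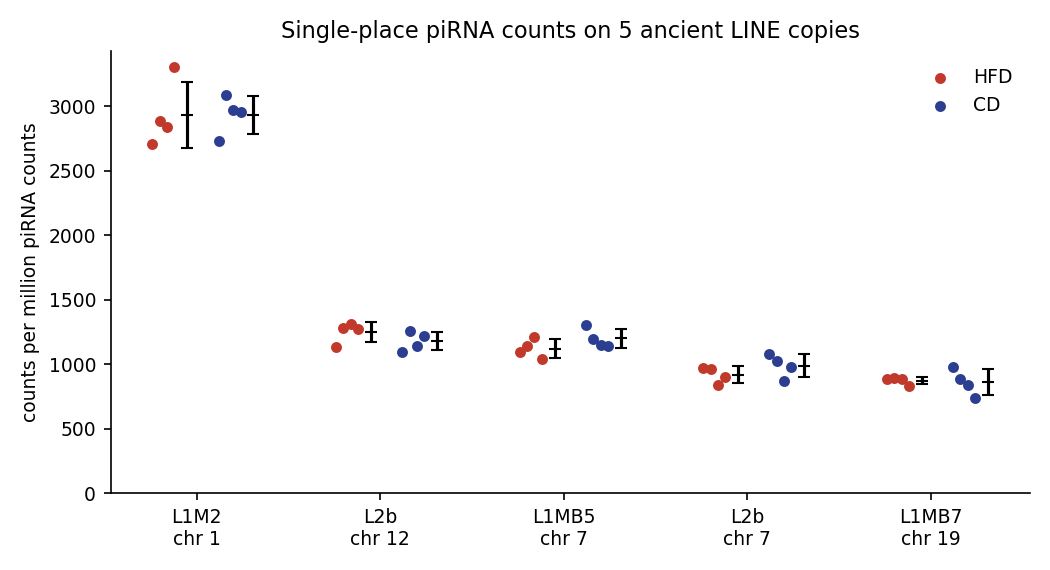
Single-place piRNA counts, as CPM of the library's piRNA counts, on the 5 ancient LINE copies with the most. Points are libraries, red for HFD and blue for CD, and black bars show the mean and SD of 4 libraries. The L1M2 copy on chromosome 1 lies between 2705 and 3302 and the other copies below 1314, and the diets overlap on every copy.

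Most of these counts lay in long runs of piRNAs. When counted single-place piRNAs less than 10 kb apart were joined, they formed 550 runs, of which the 20 with the most counts held 74.5% of all single-place piRNA counts and 76.7% of those on ancient LINEs. Of these 20 runs, 18 held counted piRNAs on ancient LINEs. One of them, at chr12:8604339-8644554, held 14.95% of the ancient LINE piRNA counts, and another at chr1:136159889-136234125 held 9.46%. Of the ancient LINE piRNA counts, 80.7% lay outside annotated genes, 18.6% in introns and 0.677% in exons, so that 19.3% lay within gene bounds. Of the 918 listed places, 6.97% lay within gene bounds, and of all ancient LINE bases 29.6%.

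By name, L1M2 led with 29533 piRNA counts, then L2b with 20656 and L1MB7 with 11055. L2c had 175 listed places but only 4663 counts, or 0.582% of the number of its repeat counts. L1ME1 had 0, although it had 463155 repeat counts. Its 7 listed piRNAs all lay on 1 copy of 60 bases on the plus strand, at chr20:8869709-8869768, inside one of the 20 leading runs. Whether the repeat counts of L1ME1 or L2c came from such places could not be read from the repeat files, which sum all copies and both strands.

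The single-place piRNA counts on ancient LINE copies made up 1.28% ± 0.031 of piRNA counts with HFD against 1.28% ± 0.026 with CD (SD, n = 4 each). The difference of 0.0019 percentage points was within the spread between libraries (two-sided exact permutation test, p = 1).

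The strand of the copy gives the orientation of the piRNA, taking a read to have the sequence of the RNA itself. A counted read has the sense of the element on a minus-strand copy and is antisense to it on a plus-strand copy. Of the 918 listed places, 32.0% were on minus-strand copies, but 53.6% ± 0.87 of the counts were (SD, n = 8 libraries, range 52.9% to 55.6%), which was higher in 8 of 8 libraries (two-sided exact sign-flip permutation test, p = 0.00781, the smallest these libraries can give). Only reads on the minus strand of the genome were counted, and 781 of the 918 places had no count. The listed places are thus not a like baseline for the counts. The excess was smaller without the leading copy. Without the L1M2 copy on chromosome 1 the share was 39.9% against 30.5% of places, and against the places with a count only, 46.7% of which were on minus-strand copies, the excess was 6.93 percentage points. The comparison with counted places still held the leading copy, which is on the minus strand. That copy held 7 of the 137 counted places. Without it, between 38.8% and 40.8% of a library's counts were on minus-strand copies, below the 46.7% of counted places that includes it. The excess over counted places thus rested on that copy, though no test against counted places was run without it. The libraries share the same copies, so the test speaks for these libraries and not for copies in general. On rodent L1 copies, where 23.6% of 665 places were on the minus strand, the share of counts was 20.4% ± 0.28.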

How the data were processed

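The authors trimmed small RNA reads to at least 25 bases, aligned them to rn5 with Butter and counted them with featureCounts 1.4.6 at a minimum mapping quality of 1, and deposited raw counts per repeat name, piRNA and miRNA, without normalization. Repeats were counted on either strand, piRNAs and miRNAs on the reverse strand. Groups and replicate numbers came from the sample labels. For CD replicate 4 the count column carries another library number, and its files were assigned by the deposit's own list of files.

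Here, density was the count divided by the summed length of a name's copies. Names with a mean count of at least 1 were fitted with edgeR 4.0.16 in R 4.3.3 (TMM, quasi-likelihood test, Benjamini-Hochberg over 755 names, threshold 0.05). The standard error was the log2 fold change divided by the square root of F. On 733 simulated names the fit recovered 72.8% of 195 names changed by a log2 fold change of 1, with 0 calls when nothing was changed. DESeq2 1.42.0 was an alternative. Single values were tested by exact permutation or sign-flip tests, written in Python 3.11. No pair of libraries was alike within sampling noise over these names (chi-square at least 8.47 times its degrees of freedom), and none was counted as a duplicate. Nothing states that libraries were prepared on separate days, so p-values measure the spread between these libraries.

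The names, lists and tests were chosen with earlier results of these data known. Names given with values were the 6 with the highest mean count, the 6 with the highest and 3 with the lowest density at a mean count of at least 10, the 3 with the smallest p, and the 5 copies with the most piRNA counts. Genes of the piRNA pathway and cell markers were planned but not run, since 0 of 26560 gene identifiers matched a symbol. The mRNA files served only for gene positions. Alternatives covered test, scaling, filter, replicate block, denominator, overlap and leaving out each library.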

Additional observations from a re-analysis of the deposited data

Results flagged for a closer look

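Of 66 groups of 4 libraries screened for a library far from the others, 3 were flagged, where chance alone flags about 1 in 20, or 3.3. In CD replicate 2, L1P made up 0.000166693% of repeat counts, against 3.56e-05% to 3.98e-05% in the other CD libraries, which rests on 5 counts. In HFD replicate 1, L2b had 11639.7 CPM, above the 11196 to 11250 of the other HFD libraries. In CD replicate 3, L2 had 9244 CPM, below the 9424 to 9437 of the other CD libraries.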

How the results depend on the processing

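The count of ancient LINE names called between diets was 0 in edgeR and under all 16 alternatives, the replicate block included, with 0 to 2 names at an unadjusted p under 0.05. The same-numbered libraries share only a number. Their deviations correlated by 0.071 on average (-0.0088 to 0.165), against -0.024 for other pairs, and the replicate block left the differences in share at 0.0115 points of repeat counts and 0.0019 of piRNA counts (exact p = 0.875 and 1). Leaving out 1 library gave a difference in the share of repeat counts of -0.097 to 0.111 points, and in that of piRNA counts of -0.0127 to 0.0118, on both sides of 0. Family shares changed sign in L1MD (-0.0065 to 0.033 points), the L1M names outside L1MA to L1ME (-0.026 to 0.057), L1P (-4.55e-05 to 3.45e-06), HAL1 (-0.000447 to 8.21e-05) and L3 (-8.1e-05 to 0.000188). Log2 fold changes did so in L2c (-0.051 to 0.0070), L1M2 (-0.013 to 0.057), L2b (-0.022 to 0.034), L2 (-0.010 to 0.029), L2a (-0.019 to 0.055), L4_B_Mam (-0.063 to 0.0071), L1ME3Cz (-0.027 to 0.055) and L1MD3 (-0.0066 to 0.152). With the library total and no TMM, L2b was at -0.0015 and L2 at -0.0023, and with the total of all small RNA counts at -0.00073 and -0.0016. None of these differences was called in any setting.

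By the median name, the log2 ratio of ancient LINEs to rodent L1 was -1.83, and the difference in counts per kb was -0.019 for L1ME against other L1M names, -0.060 for these against L4, -1.37 for L4 against L1MB, -0.076 for L1MA against L1MD, and -0.099 for L1MC against L3. It was 0.165 for L1MD against L1MC, now past the threshold, and 0.014 for HAL1 against L1P, no longer past it. With names of a mean count of at least 10 only, it was -1.45 for other L1M names against L4, 0.14 for L1MA against L1MD and 0.0052 for L3 against HAL1, both no longer past the threshold, and 0.257 for L1MD against L1MC, now past it. L1P has no such name and gave no value. L1MA against L1MD lay between 0.159 and 0.254 on leaving out 1 library and lost the call in 6 of 8 cases. L1MD against L1MC lay between 0.154 and 0.257 and passed without CD replicate 1 (0.257). The cause was not tested. The denominator without structural RNA genes was not run, because 0 repeat names are of that kind. Leaving out leading names, the leading copy or uncounted places was chosen after seeing the data. The standard error of the log2 fold change was 0.052 at the median of names with a mean count of at least 1000, but 0.50 for HAL1ME and 0.72 for L1MEg1, which have few counts.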
